A study of Homo sapiens with 6 samples.

Results

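The 10 transcripts described here are the mouse mitochondrial messenger RNAs mt-Co1 (ENSMUST00000082402), mt-Co2 (ENSMUST00000082405), mt-Co3 (ENSMUST00000082409), mt-Cytb (ENSMUST00000082421), mt-Atp6 (ENSMUST00000082408), mt-Nd1 (ENSMUST00000082392), mt-Nd2 (ENSMUST00000082396), mt-Nd3 (ENSMUST00000082411), mt-Nd4 (ENSMUST00000082414) and mt-Nd5 (ENSMUST00000082418). They were chosen by Ensembl transcript identifier and make up 10 of the 34725 mouse transcripts, and of 81209 transcripts of both species, in the matrices of the series. They are a chosen list and need not hold every protein gene of the mouse mitochondrial genome. The series mixed human JJN3 and mouse 5TGM1 cells (5TGMG1 in the labels), both myeloma lines by the labels, and read single-cell cDNA on nanopore instruments to ask how PCR cycles affect the counting of unique molecular identifiers (UMIs), the random tags that mark each captured RNA molecule. Cells were captured by Drop-seq on the Nadia system (libraries with 25, 30 and 35 PCR cycles in their labels) or by 10X Chromium (30 and 35 cycles). Each of these 5 groups held 1 library, so no test between groups was possible and every interval below is a 95% interval for counting error only. No treatment and no genetic change was applied to any group, and the sixth sample, with read numbers only, was not used.

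Mitochondria carry a small circular genome of their own. Its protein genes all encode subunits of the machinery of oxidative phosphorylation, in which complexes I, III and IV pass electrons to oxygen and pump protons, and complex V uses the proton gradient to make ATP. The RNAs are transcribed as long precursors from both strands, cut out between the transfer RNAs and given short polyA tails, so oligo-dT primers on beads can capture them. Their share of a cell's counts is widely read as a sign of cell condition in single-cell work. Among the members, mt-Co1, mt-Co2 and mt-Co3 encode the catalytic core of cytochrome c oxidase (complex IV), mt-Cytb encodes cytochrome b of complex III, mt-Atp6 a proton channel subunit of ATP synthase (complex V), and the mt-Nd genes core membrane subunits of NADH dehydrogenase (complex I).

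The label of each library gave a number of cells (1000, 500, 500, 2000 and 2000 in the order of the groups). That many barcodes were taken from the top of the ranking by total count, and those with at least 90% of their counts on mouse transcripts were called mouse cells. There were 590, 291 and 309 mouse cells among the Drop-seq barcodes at 25, 30 and 35 cycles and 806 and 881 among those of 10X at 30 and 35 cycles, with a median of 275, 276, 412, 115 and 167 mouse counts per cell. A stored entry of a barcode and transcript was never below 1 at 25 cycles, below 3 for the other Drop-seq libraries or below 2 for 10X. At 25 cycles no value above 0 lay under that limit. In the other libraries an absent entry can be 0 or a lower value that was left out. The libraries of a platform shared cells: 271 barcodes were mouse cells in both Drop-seq libraries at 30 and 35 cycles and 631 in both 10X libraries, 253 and 268 mouse cells of the 25-cycle library recurred among those of the 30- and 35-cycle Drop-seq libraries, and no mouse cell of Drop-seq had the barcode of a 10X mouse cell at the same cycle number. Species was read from the identifiers alone, and the markers of the mouse line were not analysed here.

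Together the members took a larger share of the mouse counts in Drop-seq than in 10X. The share was 3.96% at 25 cycles (14315 of 361738 counts, exact Clopper-Pearson interval 3.89 to 4.02%), 3.69% at 30 cycles (6460 of 175011 counts, 3.60 to 3.78%) and 3.52% at 35 cycles (8880 of 252025 counts, 3.45 to 3.60%) in Drop-seq. In 10X it was 1.88% at 30 cycles (2119 of 112800 counts, 1.80 to 1.96%) and 1.66% at 35 cycles (3012 of 181284 counts, 1.60 to 1.72%). All intervals of Drop-seq lay above those of 10X, but the size of the gap moved with the lowest values stored. When values below 3 were dropped from all libraries, the share was 5.17% in the 25-cycle library and 3.09% and 2.44% in 10X, against 3.69% and 3.52% for the remaining Drop-seq pair, which holds no such values. Members had lower shares of their counts in values below 3 than other mouse transcripts, with 9.64% against 34.7% in the 25-cycle library, 56.7% against 76.3% in 10X at 30 cycles and 49.7% against 68.4% in 10X at 35 cycles.

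Single barcodes weighed on the Drop-seq totals. One mouse cell of the 25-cycle library held 31276 mouse counts and 1335 of the 14315 member counts (9.33%), and without it the share was 3.93%. The cell with the most member counts had a share of 1.48% at 30 cycles (217 of 14654 counts) and 1.29% at 35 cycles (246 of 19139 counts), and without it the library's share was 3.89% and 3.71%. In 10X the corresponding cell held 1.23% and 0.93% of the member counts.

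Cell by cell, the platforms kept their order while the cells of each library spread widely. The median share per mouse cell was 3.72% at 25 cycles (quartiles 2.23 and 5.23%), 4.01% at 30 cycles (2.32 and 6.54%) and 3.89% at 35 cycles (2.58 and 5.83%) in Drop-seq. It was 1.42% (0 and 2.89%) and 1.28% (0 and 2.55%) in 10X at 30 and 35 cycles. The variance of the share was 6.33, 10.9 and 10.9 times that of binomial sampling at the cells' depths in Drop-seq and 3.14 and 3.55 times in 10X. For the same spread between cells this ratio grows with depth, and Drop-seq cells were deeper. Member entries also held larger values, with means of 6.65, 8.37 and 9.03 counts in Drop-seq against 2.47 and 2.61 in 10X. The ratios therefore do not compare the spread between cells of the platforms. At least 10% of the mouse counts lay on members in 17, 31 and 16 Drop-seq cells and in 4 and 1 10X cells. The highest share of a cell was 27.7% (43 of 155 counts) at 25 cycles, 21.1% (30 of 142) and 15.4% (30 of 195) for the 30- and 35-cycle Drop-seq libraries, and 17.2% (16 of 93) and 10.8% (12 of 111) in 10X, so these cells had few counts.

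**Figure D1:**
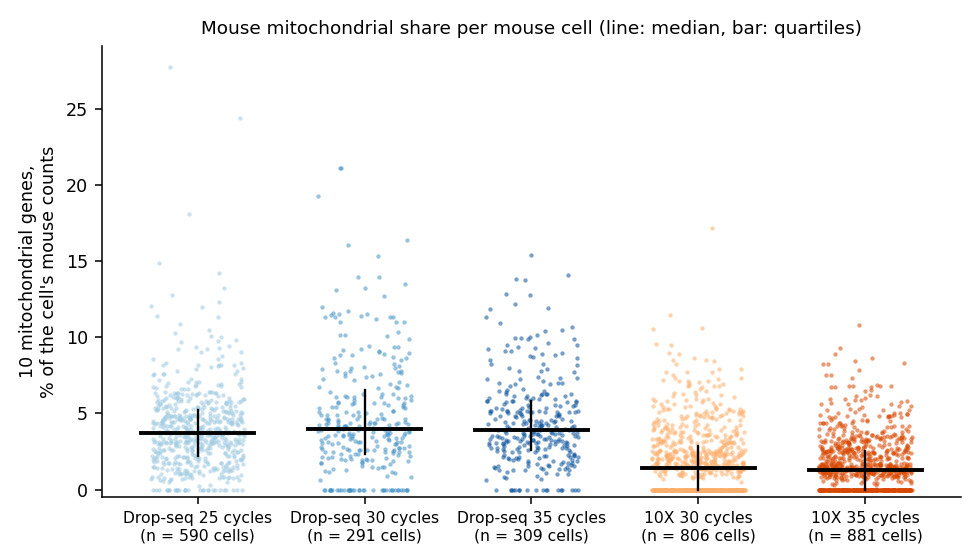
Share of a mouse cell's mouse counts on the 10 mitochondrial transcripts, in percent (vertical axis), for the mouse cells of each library (horizontal axis). Each point is a cell, the horizontal line is the median and the vertical bar spans the quartiles; the Drop-seq medians lie between 3.72 and 4.01% and the 10X medians at 1.42 and 1.28%, and each library has cells at 0.

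No count of any member was stored in 29 of 590 mouse cells of the 25-cycle library (4.92%), in 38 of 291 (13.1%) and 18 of 309 (5.83%) of the Drop-seq pair at 30 and 35 cycles, and in 342 of 806 (42.4%) and 301 of 881 (34.2%) of 10X. Cells without a member were shallower, with medians of 173, 149.5 and 228.5 mouse counts against 288, 323 and 430 in Drop-seq and of 99 and 149 against 131 and 184 in 10X. After thinning each cell to 100 mouse counts, which left out 300 shallower cells of 10X at 30 cycles and none elsewhere, any member was found in 89.5% (86.7 to 91.8%), 81.1% (76.1 to 85.4%) and 87.7% (83.5 to 91.1%) of Drop-seq mouse cells and in 63.0% (58.7 to 67.3%) and 59.6% (56.3 to 62.9%) of 10X mouse cells. In human cells of the same libraries, thinned to 100 counts of both species (658 of 1006 of 10X at 30 cycles were deep enough, and all others), that was 19.1%, 7.83% and 17.0% in Drop-seq, against 0.912% and 0.329% in 10X. Unthinned, a member was found in 95.1%, 86.9% and 94.2% of Drop-seq mouse cells against 49.0%, 17.5% and 33.3% of human cells, and in 57.6% and 65.8% of 10X mouse cells against 0.895% and 0.439%. The median human cell held 271, 243, 352, 118 and 171 counts in the order of the groups. Mouse transcripts of all kinds also took a larger share of the counts of human cells in Drop-seq than in 10X, as given below. A mouse cell held counts of 4, 3 and 3 different members in the median in Drop-seq and of 1 in each 10X library.

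Share and depth went together differently in the libraries, also within Drop-seq. In Drop-seq at 30 cycles the deepest of 4 equal groups of mouse cells (median 1070 mouse counts) had a share of 3.08% (2.98 to 3.18%), and the next groups had 4.42%, 6.02% and 5.15%. The same order was seen at 35 cycles, with 2.90% (2.82 to 2.98%) in the deepest group (median 1516 counts) and 4.38%, 5.19% and 5.08% in the next. By the median cell the groups at 30 cycles, deepest first, had 3.31%, 4.29%, 5.52% and 3.53%. At 25 cycles these groups lay between 3.90% and 4.32%, and in 10X between 1.63% and 2.0% at 30 cycles and between 1.43% and 1.77% at 35 cycles, with the highest value in the deepest group in both. In 10X at 35 cycles the shallowest group came close to the deepest, at 1.73% (1.58 to 1.90%) against 1.77% (1.68 to 1.87%).

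Between platforms the shares of complexes I, IV and V in the counts of the 10 members differed by more than the counting intervals. These shares depend on which transcripts are on the list of members. Complex IV transcripts made up 43.7%, 42.7% and 44.2% of the member counts in Drop-seq at 25, 30 and 35 cycles but 29.0% and 23.4% in 10X at 30 and 35 cycles. Complex I transcripts made up 7.41% (6.99 to 7.85%), 8.45% (7.78 to 9.16%) and 9.10% (8.51 to 9.72%) in Drop-seq against 34.1% (32.1 to 36.1%) and 35.6% (33.9 to 37.4%) in 10X. Complex V, here mt-Atp6 alone, gave 14.8%, 14.9% and 14.4% in Drop-seq, against 9.82% and 9.46% in 10X. The counts were not divided by transcript length, since a mouse annotation was not used here, so the orders given are orders of counts and not of RNA amount per length.

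mt-Cytb had the most counts of the members in every library. Its transcript took 1.35%, 1.25% and 1.14% of the mouse counts in Drop-seq at 25, 30 and 35 cycles (4873, 2194 and 2869 counts), which made it the third most counted mouse transcript in each, and 0.509% and 0.523% in 10X (574 and 949 counts), where it ranked 16 and 19. A count of mt-Cytb was stored in 81.4%, 70.8% and 77.7% of Drop-seq mouse cells and in 26.3% and 36.0% of 10X mouse cells. Among the members it made up 34.0%, 34.0% and 32.3% in Drop-seq, against 27.1% and 31.5% in 10X.

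mt-Co3, the subunit III gene of complex IV, was prominent in Drop-seq and scarce in 10X. It held 3787, 1519 and 2075 counts in Drop-seq at 25, 30 and 35 cycles, or 26.5%, 23.5% and 23.4% of the member counts, and 61 and 54 counts in 10X at 30 and 35 cycles, or 2.88% (2.21 to 3.68%) and 1.79% (1.35 to 2.33%). It was stored in 72.2%, 55.3% and 66.3% of the Drop-seq mouse cells and in 3.47% and 2.95% of the 10X mouse cells. mt-Co1, the main catalytic subunit of the same complex, made up 14.7%, 16.2% and 17.2% of the member counts in Drop-seq (2108, 1044 and 1525 counts) and 21.8% and 18.0% in 10X (461 and 541 counts). mt-Co2 was less counted throughout, with 363, 196 and 328 counts in Drop-seq, against 93 and 110 in 10X, or between 2.54% and 4.39% of the member counts.

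The complex I transcripts went in different directions. mt-Nd4 made up 2.20%, 2.35% and 2.59% of the member counts in Drop-seq (315, 152 and 230 counts) and 19.0% (17.3 to 20.7%) and 18.5% (17.1 to 19.9%) in 10X (402 and 556 counts). mt-Nd5 made up 1.28%, 1.25% and 1.67% in Drop-seq (183, 81 and 148 counts) and 7.93% and 7.84% in 10X (168 and 236 counts), and mt-Nd2 0.657%, 0.759% and 0.980% in Drop-seq (94, 49 and 87 counts) and 4.96% and 8.37% in 10X (105 and 252 counts). For mt-Nd1 the order was the other way, with 3.20%, 3.98% and 3.74% in Drop-seq (458, 257 and 332 counts) and 2.03% and 0.764% in 10X (43 and 23 counts). mt-Nd3 was near the limit of detection everywhere, with 11, 7, 11, 4 and 6 counts in the order of the groups. Some neighbours in the order of counts had overlapping intervals. In Drop-seq these were mt-Atp6 and mt-Co1, and mt-Co2 and mt-Nd4, at 25 and 30 cycles, mt-Nd5 and mt-Nd2 at 30 cycles, and mt-Nd1 and mt-Co2 at 35 cycles. In 10X they were mt-Co1 and mt-Nd4 at both cycle numbers, mt-Atp6 and mt-Nd5, mt-Nd2 and mt-Co2, mt-Co2 and mt-Co3, and mt-Co3 and mt-Nd1 at 30 cycles, and mt-Atp6 and mt-Nd2, and mt-Nd2 and mt-Nd5, at 35 cycles.

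**Figure D2:**
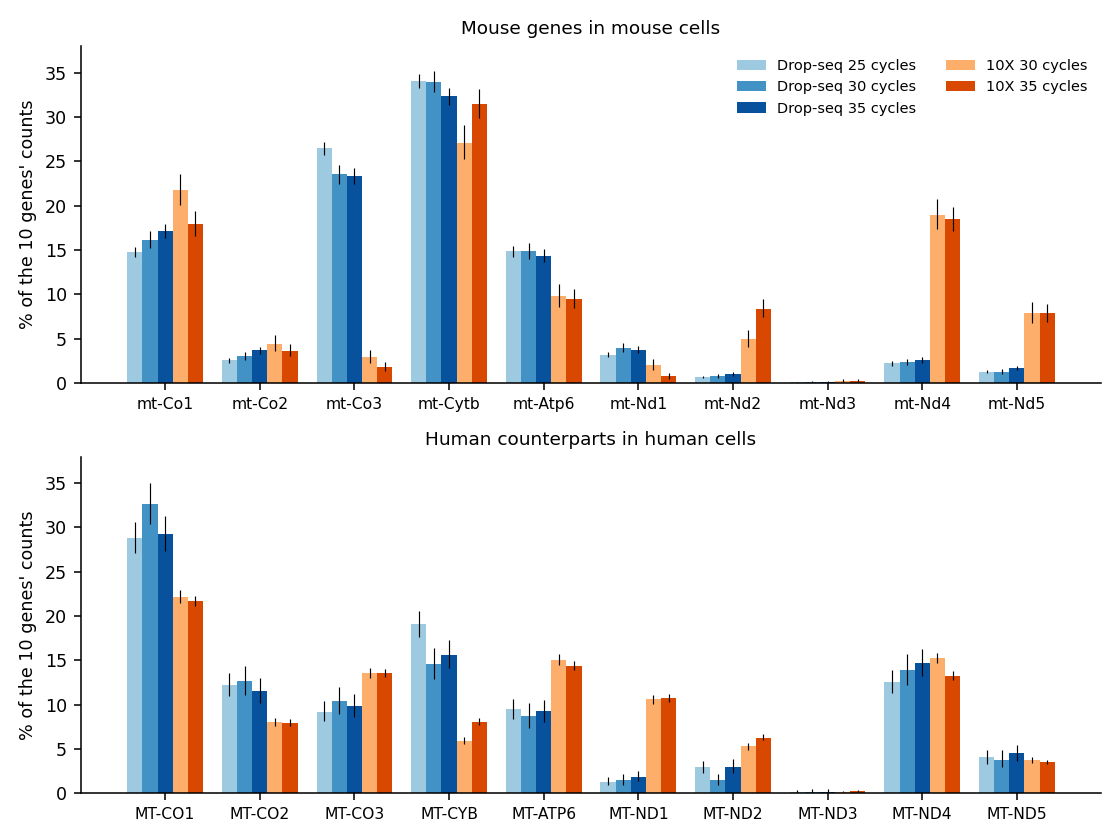
Share of each gene in the counts of the 10 mitochondrial transcripts, in percent, in mouse cells (upper panel, mouse transcripts) and of each human counterpart in human cells (lower panel), by library. Bars are totals over the cells and error bars 95% Clopper-Pearson intervals for counting error; mt-Co3 has over 23% of the counts in Drop-seq and under 3% in 10X, where MT-CO3 has 13.5 and 13.6%, and mt-Nd4 stands at 19.0 and 18.5% in 10X against under 3% in Drop-seq.

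Ratios between members showed the same split. There were 12.0 (10.7 to 13.5), 9.99 (8.45 to 11.9) and 9.02 (7.87 to 10.4) counts of mt-Co3 for each count of mt-Nd4 in Drop-seq, against 0.152 (0.114 to 0.199) and 0.0971 (0.0720 to 0.129) in 10X. The ratio of mt-Nd2 to mt-Nd1 was 0.205, 0.191 and 0.262 in Drop-seq, against 2.44 (1.70 to 3.57) and 11.0 (7.14 to 17.6) in 10X, where the intervals at 30 and 35 cycles did not overlap. The ratio of mt-Co1 to mt-Cytb moved less, from 0.433, 0.476 and 0.532 in Drop-seq to 0.803 and 0.570 in 10X. In mouse cells of Drop-seq with at least 10 counts of the pair, mt-Co3 made up a median of 44.0%, 42.6% and 43.8% of the counts of mt-Co3 and mt-Cytb, with quartiles of 22.4 and 59.0% at 25 cycles, 29.9 and 54.7% at 30 cycles and 30.0 and 54.3% at 35 cycles (210, 144 and 184 cells). Only 1 cell of each 10X library reached that minimum.

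As log2 ratios of the share of mouse counts, 10X over Drop-seq, mt-Co3 was at -3.99 (-4.40 to -3.64) at 30 cycles and -4.78 (-5.21 to -4.40) at 35 cycles. mt-Nd4 was at 2.03 (1.76 to 2.32) and 1.75 (1.52 to 1.98). Of the 9 members with at least 100 counts over both libraries (all but mt-Nd3), 3 were at least 2-fold higher in 10X at either cycle number (mt-Nd2, mt-Nd4 and mt-Nd5), while 29.8% of all 379 mouse transcripts so tested were at 30 cycles and 33.2% of 609 at 35 cycles. 4 were at least 2-fold lower at 30 cycles (mt-Co3, mt-Nd1, mt-Atp6 and mt-Cytb), beside 51.2% of all tested. At 35 cycles mt-Co1 and mt-Co2 joined them to make 6, beside 46.6% of all tested. Differences of this size were thus common among mouse transcripts, whose median log2 ratio was -1.30 at 30 cycles and -0.75 at 35 cycles. Scaling by the median of ratios instead of the totals raised all members together and turned mt-Cytb to 0.15, mt-Co1 to 0.91 and mt-Co2 to 1.01 at 30 cycles, while mt-Co3 was then at -2.54 and -3.92 and mt-Nd4 at 3.49 and 2.60 at 30 and 35 cycles. On that scale mt-Atp6 (-0.12) and mt-Nd1 (-0.48) were within 2-fold at 30 cycles, and at 35 cycles mt-Co3 and mt-Nd1 (-2.49) were the members still at least 2-fold lower. With values below 3 left out of both libraries, mt-Co3 was at -4.36 and -6.02, on only 11 and 6 counts in 10X. In that setting mt-Nd4 was at 2.96 and 2.32, and at 30 cycles mt-Co2 was at 0.40. The platforms also differed in the barcodes and UMIs of the beads and in the smallest stored value, and the part of each in these ratios cannot be told apart. For Drop-seq the study describes UMI-tools and homotrimer correction, which uses UMIs built of blocks of the same base. Which of them made the counts used here is not given, so whether UMIs were collapsed in the same way is not known.

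Human cells of the same libraries gave the reverse order of platforms. The human counterparts of the 10 genes, matched by name in GENCODE release 44, took 2.33% (2.24 to 2.41%), 2.38% (2.26 to 2.49%) and 2.26% (2.17 to 2.36%) of the human counts of human cells in Drop-seq at 25, 30 and 35 cycles. In 10X they took 8.44% (8.30 to 8.57%) and 10.4% (10.3 to 10.6%). Among the counterparts MT-CO3 made up 9.22%, 10.4% and 9.88% in Drop-seq, against 13.5% and 13.6% in 10X, where mt-Co3 had under 3% of the counts of the mouse members. MT-ND1 made up 1.34%, 1.50% and 1.89% in Drop-seq, against 10.6% and 10.8% in 10X, the opposite direction to mt-Nd1, and MT-ND4 lay between 12.6% and 15.3% in all 5 libraries. The difference between species was not tested, since each platform and cycle number had 1 library.

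Several members had a near duplicate among the counted transcripts. The transcript ENSMUST00000188231 was stored with the same count as mt-Co2, ENSMUST00000190277 as mt-Co3, ENSMUST00000189941 as mt-Atp6 and ENSMUST00000188299 as mt-Nd3 in 91.7 to 100% of the mouse cells holding the member, in all 5 libraries, although mt-Nd3 was stored in only 1 to 6 mouse cells of each. For mt-Co3 the totals were 3787 and 3783 at 25 cycles, 1519 and 1521 at 30 cycles and 2075 and 2064 at 35 cycles in Drop-seq, and 61 and 61, then 54 and 54, in 10X. The duplicate thus moved with mt-Co3 down to the low 10X counts. These pairs were picked after the values were seen, the files pair no gene name with these identifiers, and whether the same reads were counted for both entries was not tested. mt-Co1 had a partner, ENSMUST00000187117, with 446, 231 and 420 counts in Drop-seq, against 140 and 154 in 10X, and every mouse cell with a count of it also had one of mt-Co1. Every mouse cell with a count of ENSMUST00000084013 or ENSMUST00000088336 also had one of mt-Nd4. ENSMUST00000084013 had 61, 17 and 39 counts in Drop-seq, against 185 and 243 in 10X. ENSMUST00000088336 had 52, 14 and 32, against 183 and 240. ENSMUST00000082419 had 230, 118 and 204 counts in Drop-seq, against 277 and 414 in 10X, more than mt-Nd5 in each library. Of its mouse cells 50.0 to 70.7% also held mt-Nd5. Whether these entries shared reads was not tested. Leaving the near duplicates out of the mouse counts moved the share of the members to 4.03% in the 25-cycle library and by less than the counting interval in the others.

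The pairs at 30 and 35 cycles ask what more PCR did to the members. In Drop-seq their share of mouse counts was 0.955 times as high at 35 as at 30 cycles, a log2 ratio of -0.07 (-0.11 to -0.02), but the ratio was -0.0069 over all barcodes with at least 100 counts and 0.0115 over those with at least 20. In 10X it was 0.884 times as high, a log2 ratio of -0.18 (-0.26 to -0.10). Of the 9 members tested in that Drop-seq pair none was at least 2-fold higher or lower, beside 0% of the 635 mouse transcripts tested in each direction. Of the 8 tested in 10X none was either, beside 11.5% of 348 mouse transcripts at least 2-fold higher and 6.32% at least 2-fold lower. This count depended on the setting, since mt-Co3 was at -1.09 when scaled by the median of ratios and mt-Nd2 at 1.23 without values below 3. In that last setting mt-Co2 was at -2.21 and mt-Co3 at -1.74, on 56 and 17 counts over both libraries, under the minimum of 100. The median log2 ratio of the tested members was 0.02 in Drop-seq, where that of all tested was -0.0021, and -0.22 in 10X, where that of all tested was 0.23. From 25 to 30 cycles in Drop-seq, libraries with different smallest stored values, the members together were at -0.10 (-0.14 to -0.06) and mt-Co3 at -0.27 (-0.36 to -0.18). Without values below 3 the share went from 5.17% to 3.69%, while over the 253 barcodes shared by this pair, with all stored values, the median cell was 0.25 percentage points higher at 30 cycles (136 cells higher, 111 lower and 6 equal). None of the 9 members tested there was at least 2-fold higher or lower, beside 0.785% and 1.31% of 764 mouse transcripts.

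By gene, the Drop-seq log2 ratios lay between -0.16 for mt-Nd1 and 0.34 for mt-Nd5, and all intervals but that of mt-Cytb (-0.14, -0.22 to -0.06) held 0. The 10X ratios spread further. mt-Nd2 was at 0.57 (0.24 to 0.92), going from 105 to 252 counts, and mt-Cytb at 0.04 (-0.11 to 0.19). mt-Co3 was at -0.86 (-1.42 to -0.31), mt-Co1 at -0.45 (-0.64 to -0.27), mt-Co2 at -0.44 (-0.85 to -0.03) and mt-Nd4 at -0.22 (-0.40 to -0.03). mt-Atp6 and mt-Nd5 were at -0.23 and -0.20, with intervals that held 0. mt-Nd1 went from 43 to 23 counts in 10X, at -1.57 on the log2 scale (-2.38 to -0.82), and lay under the minimum of 100 counts over both libraries. Scaled by the median of ratios, the 10X values were lower by the same amount for every member, with mt-Co1 at -0.69, mt-Nd2 at 0.34 and mt-Cytb turned to -0.19.

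**Figure D3:**
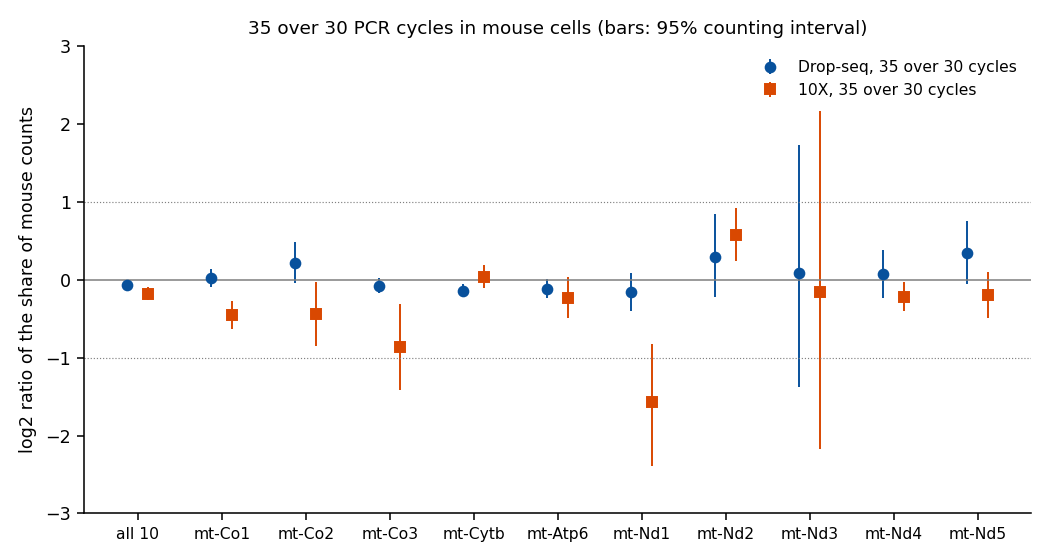
Log2 ratio of the share of mouse counts at 35 over 30 PCR cycles (vertical axis) for the 10 members together and for each of them (horizontal axis), in Drop-seq (circles) and 10X (squares). Bars are 95% intervals for counting error and dotted lines mark 2-fold; the Drop-seq values lie between -0.16 and 0.34, while in 10X mt-Nd1 is at -1.57, mt-Co3 at -0.86 and mt-Nd2 at 0.57, and mt-Cytb in 10X is at 0.04 or, scaled by the median of ratios, at -0.19.

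The same barcodes could be followed from 30 to 35 cycles. Over the 271 shared Drop-seq barcodes the share of the members was 3.70% at 30 and 3.43% at 35 cycles, a log2 ratio of -0.11 (-0.16 to -0.06), and Spearman's rho between the shares was 0.865. Over the 631 shared 10X barcodes the share was 1.84% and 1.75%, a log2 ratio of -0.07 (-0.16 to 0.01), and rho was 0.479, or 0.595 in the 97 barcodes with at least 200 mouse counts in both. The 25-cycle library and Drop-seq at 30 cycles gave a rho of 0.719 over 253 barcodes. These correlations are descriptions across cells of 1 capture, and the libraries differ in depth.

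Single entries of a cell and a member were stored again more often than those of other transcripts. In Drop-seq 709 of 757 member entries of the shared barcodes at 30 cycles had a count at 35 cycles (93.7%), against 83.5% of the entries of other mouse transcripts. In 10X it was 393 of 709 (55.4%, 51.7 to 59.1%) against 24.9%. Member entries also held larger values, with a mean of 8.37 counts at 30 cycles in Drop-seq against 5.51 for other mouse transcripts and of 2.47 in 10X against 2.22, and the part of that in the difference was not tested. Within 10X, mt-Cytb was stored again in 133 of 179 cells (74.3%), mt-Nd4 in 80 of 129 (62.0%) and mt-Co1 in 71 of 155 (45.8%), but mt-Co3 in only 4 of 25 and mt-Nd1 in 2 of 16.

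**Figure D4:**
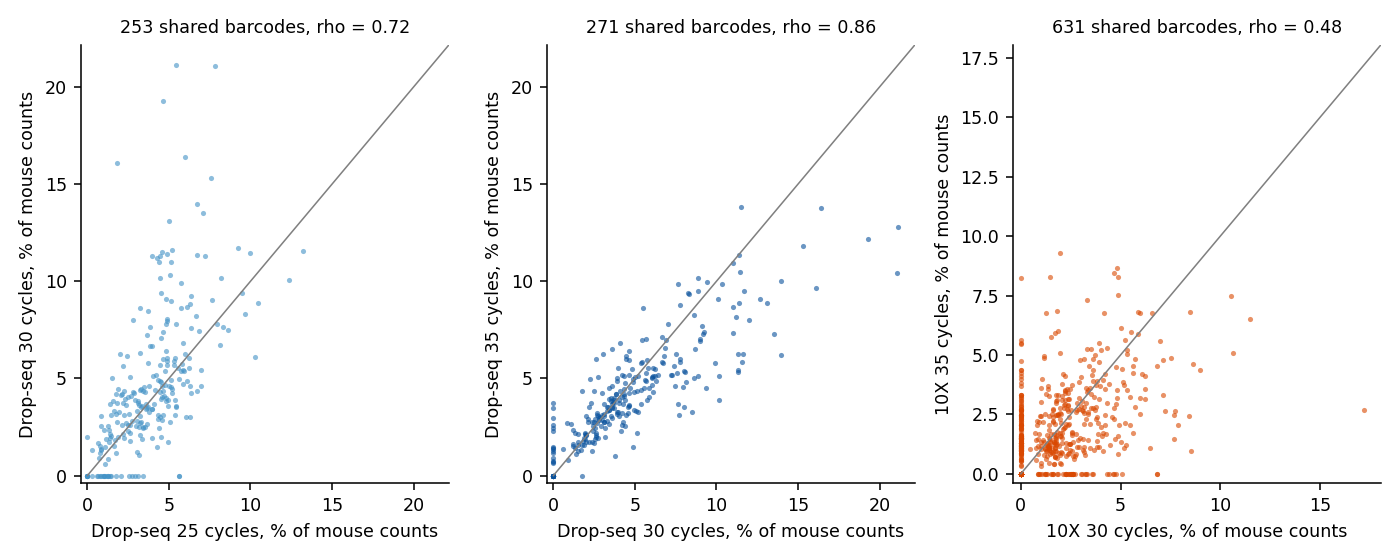
Share of mouse counts on the 10 members, in percent, for barcodes that were mouse cells in both libraries of a pair: Drop-seq at 25 and 30 cycles (left), Drop-seq at 30 and 35 cycles (middle) and 10X at 30 and 35 cycles (right). Each point is a barcode and the line marks equal shares; the Drop-seq pair at 30 and 35 cycles follows the line closely (rho 0.865), and in 10X many barcodes lie at 0 in 1 of the libraries (rho 0.479).

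Counts assigned to the mouse mitochondrial transcripts also appeared in human cells, and whether some of them came from reads of the human counterparts was not tested. In 10X they were rare, with 18 counts over 1006 human cells at 30 cycles and 9 over 911 at 35 cycles, or 0.0110% and 0.0045% of all counts of those cells. In Drop-seq they came to 296 counts over 251 human cells, 135 over 166 and 345 over 165, or 0.242%, 0.198% and 0.361% of all counts, against 3.80%, 3.64% and 3.46% in mouse cells. Mouse transcripts of all kinds made up 5.64%, 1.51% and 2.04% of the counts of human cells in Drop-seq, against 0.609% and 0.403% in 10X. The study's methods give more mouse than human cells loaded for Drop-seq and equal parts for 10X. The part of that in these counts was not tested. A count of mt-Cytb was stored in 83 human cells of the 25-cycle library (33.1%) and in 20 (12.0%) and 49 (29.7%) at 30 and 35 cycles, but in 2 and 1 human cells of 10X. The human cells with mt-Cytb were deeper, with medians of 468, 697 and 944 counts in Drop-seq against 228, 230.5 and 287 in those without.

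Among the mouse counts of human cells the members weighed more than in mouse cells in 2 of the Drop-seq libraries. They made up 13.1% (11.1 to 15.3%) of these counts at 30 cycles and 17.8% (16.1 to 19.5%) at 35 cycles, where mouse cells had 3.69% and 3.52%. In the 25-cycle library the share was 4.30% (3.83 to 4.81%) beside 3.96% in mouse cells, and in 10X it was 1.81% (1.08 to 2.85%) and 1.12% (0.512 to 2.11%) beside 1.88% and 1.66%. The smallest stored value moved with this: with values below 3 left out, the 25-cycle share was 9.19% in human cells and 5.17% in mouse cells. mt-Cytb led all mouse transcripts in the human cells of each Drop-seq library, with 136 of 296 member counts (45.9%), 78 of 135 (57.8%) and 213 of 345 (61.7%). Mixed barcodes, with under 90% of either species, had shares of 3.57%, 5.78% and 4.22% in Drop-seq, against 1.79% and 1.56% in 10X, and barcodes outside the cells had 4.07%, 4.96% and 5.18% and 1.76% and 1.67%.

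**Figure D5:**
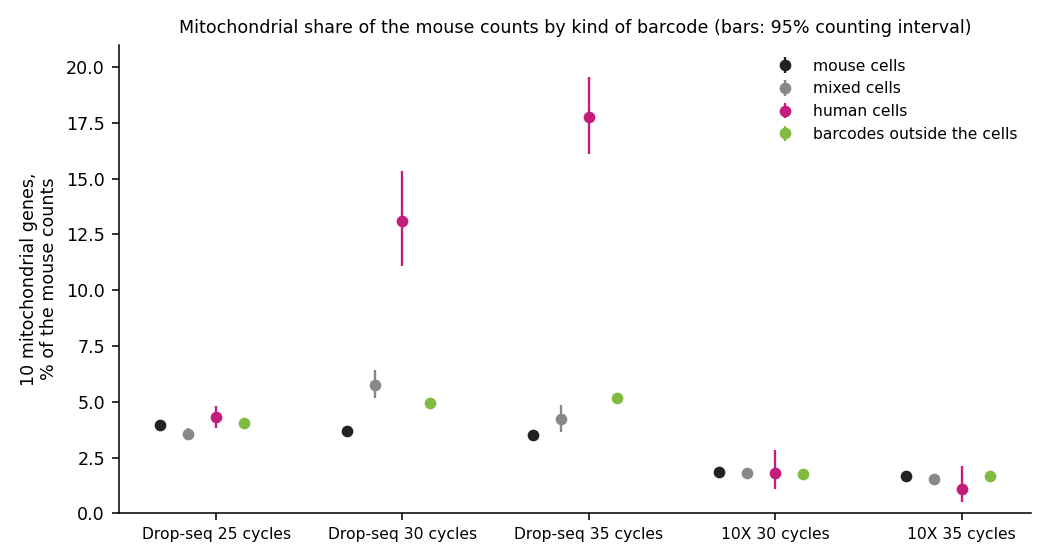
Share of the mouse counts on the 10 members, in percent (vertical axis), in mouse cells, mixed cells, human cells and barcodes outside the cells of each library (horizontal axis). Points are totals over the barcodes with 95% Clopper-Pearson intervals for counting error; the human cells of Drop-seq at 30 and 35 cycles stand at 13.1 and 17.8%, while the 4 kinds of barcode lie between 1.12 and 1.88% in 10X.

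Members varied together only weakly from cell to cell. Between the shares of mt-Co1, mt-Co3, mt-Cytb and mt-Atp6 in mouse cells with at least 200 mouse counts, the highest Spearman's rho was 0.306, between mt-Co3 and mt-Cytb in Drop-seq at 35 cycles (280 cells), and the lowest was -0.0964, between mt-Co1 and mt-Cytb in 10X at 30 cycles (102 cells). Such counts are sparse and the shares of a cell have 1 total in common. Of 22 other mouse transcripts with at least 200 counts in every library, the near duplicate of mt-Atp6, ENSMUST00000189941, followed the members' share most. Its mean rho was 0.357 over the 5 libraries, but the members' share includes mt-Atp6 itself, so a high rho was built in. The next transcript was ENSMUST00000103418 with 0.0997. The lowest were ENSMUST00000042235 with -0.0531 and ENSMUST00000019649 with -0.0498, and the median of the 22 was 0.0108.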

How the data were processed

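The authors deposited unnormalized whole-number UMI counts for each pair of a barcode and an Ensembl transcript. Guppy made their base calls, and minimap2 placed the reads on transcripts of hg38 (human) and mm10 (mouse). For 10X the authors collapsed UMIs by the directional setting of UMI-tools. For Drop-seq they describe UMI-tools counting and homotrimer correction. In the study, Drop-seq transcripts differed between cycle numbers with the first method and none did significantly with the second. Which of them made the Drop-seq counts used here, and which filters set the smallest stored values of 1, 3 and 2, is not given in the sources used here. Barcodes had 10 bases in every matrix, so cells of 1 library could share a stored barcode. The cycle numbers are those of the labels. For 10X the study's main text gives lower numbers, as totals of the cycles before and after the library was split. Its methods give the same numbers as further cycles after the split, which with the cycles before it sum to those of the labels. The main text also gives these lower numbers for the Drop-seq libraries it read on the PromethION. The sources thus conflict, and which numbers hold was not settled here. Sources differ on the human cells, which the labels and single-cell methods call JJN3 while a figure legend and the culture methods name Jurkat, a T cell leukaemia line. The name of the labels was kept.

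The members, lists and alternatives were chosen with earlier results of these data known. Species was read from the identifier prefix, and member names came from a list fixed with the identifiers. No mouse annotation was used, so mouse positions, lengths, sequences and nuclear oxidative phosphorylation genes were not analysed here. Besides the members, the transcripts named were the human counterparts and, by rule, the transcripts most and least like the members across cells. Near duplicates and the other partners of members were named after their values were seen.

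The tools were scipy 1.17.1, pandas 2.3.3, numpy 2.4.6 and matplotlib 3.10.9 under Python 3.11.15. Shares have exact Clopper-Pearson intervals and ratios exact conditional binomial intervals at 95%, and log2 ratios of single transcripts used totals of mouse counts and a pseudocount of 0.5 counts. Transcripts entered a comparison with a sum of at least 100 counts in its libraries and were called by size at 2-fold, not by a test. Mouse cells held 361738, 175011, 252025, 112800 and 181284 mouse counts in the order of the groups. PCR copies and entries removed before deposit are not covered by the intervals. No doublet caller was run, and doublets of 1 species stayed in. The calculation of the log2 ratio and its call was tested on simulated totals with known changes. These held no spread between cells and no missing low values, so that run checks the arithmetic only.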

Additional observations from a re-analysis of the deposited data

Results flagged for a closer look

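mt-Co1 stood out because its log2 ratio of 35 over 30 cycles was -0.45 (-0.64 to -0.27) in 10X and 0.02 (-0.09 to 0.14) in Drop-seq, with intervals that did not overlap. The Drop-seq interval held 0, so that value had no settled sign. mt-Co2 (-0.44 in 10X and 0.22 in Drop-seq), mt-Nd4 (-0.22 and 0.07) and mt-Nd5 (-0.20 and 0.34) also differed in sign, with intervals that overlapped. So did mt-Cytb (0.04 and -0.14), whose Drop-seq interval did not hold 0, and mt-Nd3 (-0.15 and 0.09), on few counts. These differences were not tested, because each platform had 1 library at each cycle number. Under 8 alternatives the 10X value of mt-Co1 stayed between -0.69 and -0.32, and its Drop-seq value lay between -0.05 and 0.05.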

How the results depend on the processing

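No paired analysis was possible because each group had 1 library, and barcodes shared by libraries were compared only as a description. No depth or replicate check separates a difference between libraries from one between conditions, and the missing low values limit 10X and Drop-seq at 30 and 35 cycles most. The cause of each move below was not tested. For the 10 members' share of mouse counts in mouse cells, leaving out values below 3 gave 5.17% in the 25-cycle library and 3.09% and 2.44% in 10X. Taking the deeper 50% of the labelled number of barcodes gave 3.39% and 3.26% for the 30- and 35-cycle Drop-seq pair and 1.97% in 10X at 30 cycles. All barcodes with at least 20 counts gave 3.88% and 3.91% in that Drop-seq pair and 1.72% and 1.55% in 10X, and at least 100 counts gave 3.70% in Drop-seq at 35 cycles. The 25-cycle share was 3.80% of all counts and 4.03% without the near duplicates, a setting chosen after seeing the data. With 20 counts or more, the median cell had a share of 2.17% at 25 cycles and of 0% in the other 4 libraries, and without values below 3 it was 4.51% at 25 cycles and 0% in both 10X libraries.

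In human cells, the members' share of mouse counts was 9.19% at 25 cycles and 0% and 2.44% in 10X without values below 3, and 5.31%, 15.8% and 21.1% in Drop-seq at a purity of 95%, both settings chosen after seeing the data. The share's log2 ratio of 35 over 30 cycles was -0.0069 and 0.0115 in Drop-seq with all barcodes of at least 100 and 20 counts, and in 10X -0.34 without values below 3 and -0.0741 over shared barcodes. mt-Cytb turned to 0.15 in 10X over Drop-seq at 30 cycles when scaled by the median of ratios, also chosen after seeing the data.

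Mouse transcripts at least 2-fold higher at 35 cycles in Drop-seq numbered 1 with fewer cells, at 20 counts and at a purity of 95%, 8 at a minimum of 50 counts and 356 with no minimum, and those lower numbered 1, 4 and 554 at 20 counts, at the minimum of 50 and with none. In 10X those higher numbered 15 with fewer cells, 67 at 20 counts, 9 without values below 3, 21 under the median of ratios, 108 and 11 at minimums of 50 and 200 counts and 801 with none. Those lower numbered 37 at 20 counts, 14 without values below 3, 93 at the minimum of 50 and 1572 with none. Any member was found in 75.4%, 74.6%, 78.3%, 44.3% and 44.5% of mouse cells thinned to 50 counts and in 95.7%, 91.5%, 95.4%, 83.3% and 77.7% of those thinned to 200, in the order of the groups.

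Of single members in 10X at 35 over 30 cycles, mt-Co2 ranged from -2.21 to -0.21, mt-Co3 from -1.74 to -0.86 and mt-Nd2 from 0.34 to 1.23 over 8 alternatives. These and mt-Co1, mt-Atp6, mt-Nd1 and mt-Nd4 kept their sign, while mt-Cytb changed sign under 2, mt-Nd3 under 3 and mt-Nd5 under 1.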
